A study of Mus musculus with 15 samples.

Results

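Tandem 3' ends are alternative ends of a transcript that lie in the same last exon, so that using one or another changes the length of the 3' untranslated region (3' UTR) and not the exon structure. The members described here were all events of the tandem end type in genes with a mean of at least 10 CPM (counts scaled to a common total of the counts on annotated genes) over the libraries compared. This rule took 8543 of the 14545 tandem end events in the authors' table, which lists 138940 events of all types. The events were grouped into 3364 regions, each 1 last exon with its ends, in 3273 genes. Another 2392 regions lay in genes under 10 CPM, and 15 regions matched no gene. Nearest to the threshold, Ildr1, Zfp217 and 9430038I01Rik fell outside at 9.94, 9.97 and 9.98 CPM, and St7, Odf2l and Zfp846 fell inside at 10.01, 10.02 and 10.03 CPM.

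The libraries were made from CD8+ T cells of OT-1 Tg C57BL/6J mice, whose T cell receptor recognises the SIINFEKL peptide of ovalbumin. The cells were transferred into C57BL6/J mice, which received the peptide with a control rat antibody (Ag) or the peptide with agonist antibodies against OX40 (CD134) and 41BB (CD137) (Ag+Costim). Donor cells were sorted from spleen and lymph nodes, after 4 days per the labels (somewhat earlier per the study's methods). The labels give no age and do not say whether animals were pooled, and the study's text calls each library a biological replicate. The p-values below set the difference between the groups against the spread between these libraries. Of 15 labelled samples in 3 groups of 5, 5 libraries of Ag were compared with 5 of Ag+Costim, and Naive libraries were not analysed here. The donor cells came from 1 T cell receptor transgenic strain, with a single specificity.

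The estimated counts of a library totalled 59.6 to 449.4 M (mega) in Ag and 332.3 to 639.1 M in Ag+Costim. Ag replicate 3 stood apart with the lowest total. The defining markers of CD8 T cells (Cd3e, Cd3d, Cd8a, Cd8b1, Trac) summed to 3261 to 6261 CPM in Ag, against 3240 to 4048 CPM under costimulation. Summed markers of B cells ranged from 15.8 to 343 CPM in Ag and from 12.8 to 28.6 CPM with costimulation, and those of erythroid cells from 6.80 to 796 CPM and from 1.93 to 22.2 CPM. The corresponding ranges were 44.3 to 102 and 56.4 to 121 CPM for myeloid cells, 2.39 to 14.2 and 0.817 to 3.71 CPM for CD4 T cells, and 1.90 to 19.5 and 0.437 to 1.97 CPM for NK cells. No marker was at 0 in all libraries, and Ag replicate 3 held the highest sums of the Ag group for the B cell, erythroid, myeloid and NK cell markers. The part of these cells in the results below was not tested. In bulk samples, fewer cells of a type and less RNA per cell cannot be told apart.

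A messenger RNA ends where the cleavage and polyadenylation machinery cuts the nascent transcript and adds a poly(A) tail. The machinery reads a hexamer, most often AATAAA or its variant ATTAAA, a short way upstream of the cut. Many genes carry several such sites in the last exon, and the stretch between a proximal and a distal site can hold binding sites of microRNAs and RNA binding proteins that act on stability, translation or localisation. Proliferating and activated lymphocytes are known for a tendency toward proximal sites and shorter 3' UTRs.

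For each group the deposited table gives 1 Psi (percent spliced in) per end, read here as the share of the region's transcripts that use it, with the libraries of the group already combined. In Ag these Psi values summed to within 0.05 of 1 in 3345 of the 3364 regions. Over both groups the sums ran from 0.993 to 1.20. The Psi values are the authors' pooled values, without replicate error, and the comparisons of Psi below are descriptions with no test. From the Psi values an end position was computed for each region, the mean place of the ends in use, from 0% (all use at the most proximal end) to 100% (all use at the most distal end). A region was counted as shorter in Ag+Costim where its position was lower than in Ag by over 5 points, and as longer where it was higher by over 5 points. The 30 bases before the ends of Ikzf1, Luc7l2, Cd247 and Bcl2l11, whose use is described below, are printed here to show which kinds of ends the Psi values compare. All are from the mouse mm10 (GRCm38) build, in the 3' UTR of the last exon, read 5' to 3' on the gene's strand, with AATAAA or ATTAAA in capitals.

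Ikzf1 proximal, chr11:11769769-11769798, plus strand: ggaacattcacaacatccatccttctagcc
Ikzf1 middle, chr11:11772083-11772112, plus strand: gctggtaaaggagggttttgcatgacctca
Ikzf1 distal, chr11:11772897-11772926, plus strand: tgtttccaatcctttctaatacattttttc
Luc7l2 proximal, chr6:38605011-38605040, plus strand: gcAATAAAggatctagctgattcttgtgtt
Luc7l2 distal, chr6:38606338-38606367, plus strand: agtgaaaagtttaaaaaaaaaaaaagaaaa
Cd247 proximal, chr1:165870220-165870249, plus strand: tcaagtttcctttggcaagacagatataaa
Cd247 distal, chr1:165871124-165871153, plus strand: agttataAATAAAttactacatcaatttct
Bcl2l11 proximal, chr2:128160932-128160961, plus strand: cctcaagttgtAATAAAcatacaaaatggt
Bcl2l11 middle, chr2:128161199-128161228, plus strand: ctttgtaaaatattgtacagcataaatgag
Bcl2l11 distal, chr2:128162518-128162547, plus strand: tatataAATAAAacttgcgactagctttca

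The 3 ends of Ikzf1 hold neither hexamer in these 30 bases, Luc7l2 holds one only before its proximal end, Cd247 only before its distal end and Bcl2l11 before its outer ends. This mixture was typical of the members. Of 8304 member ends with sequence, AATAAA stood in the last 30 bases of 43.9% and ATTAAA without AATAAA in 11.4%, in all 55.3%. The share over all tandem ends of the table was 53.3%, and in windows of the same length 200 bases further upstream of member ends it was 3.07%. Only the sense strand was searched. A match is a description of the letters, and the lack of one says only that these letters are not in the window.

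Most members had a single alternative end. There were 2222 regions with 2 ends, 745 with 3 and 397 with 4 or more, up to 12 in Ablim1. The distance from the most proximal to the most distal end had a median of 395 bases (quartiles 11 and 1445), and in 983 regions it was under 25 bases. Ends so close together differ hardly at all in 3' UTR length, so the 2152 regions with ends at least 100 bases apart (64.0%) are described on their own below as widely spaced. Their median 3' UTR length was 216 bases at the most proximal end and 1551 bases at the most distal end. In 291 of them the most proximal annotated end lay at or before the stop codon, so that the transcript model has no 3' UTR.

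In widely spaced regions the hexamers were more common at distal ends. One of them preceded 27.6% of the most proximal ends, 48.4% of the ends between and 66.5% of the most distal ends. Ends that were hardly used (Psi up to 0.05 in both groups) had one in 32.2% of cases, and ends with Psi over 0.5 in both groups in 59.1%. Among regions shorter in Ag+Costim the shares were 24.3% at the most proximal and 67.5% at the most distal end, and among longer regions 21.9% and 73.1%.

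More regions were shorter than longer in Ag+Costim. Of the 3364 member regions, 705 were shorter and 370 were longer (21.0% and 11.0%), beside 28.9% and 15.3% over all 5756 regions of the table that matched a gene. Of the 2152 widely spaced members, 395 were shorter and 142 were longer (18.4% and 6.60%), beside 29.8% and 12.9% over all 3771 widely spaced regions. These counts use the Psi values that define the classes and stand as a description. The shift of a typical region was small, with a median of -0.20 points over all members and -0.38 points over widely spaced ones. In members with ends under 100 bases apart the classes were closer in size, with 310 shorter and 228 longer of 1212.

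**Figure D1:**
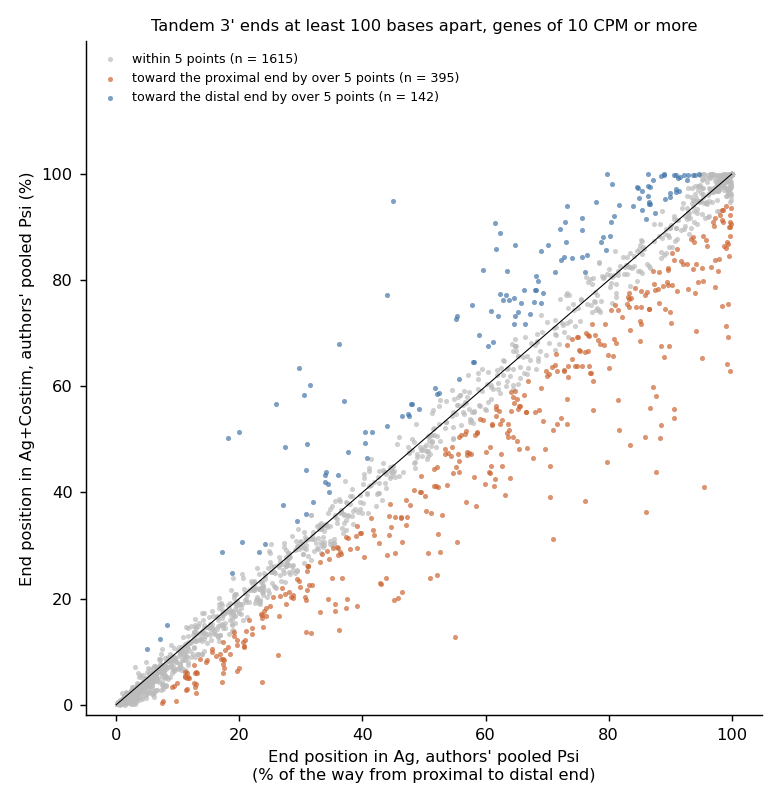
End position of each of 2152 widely spaced member regions from the authors' pooled Psi, in Ag (x axis, % of the way from the most proximal to the most distal end) and Ag+Costim (y axis, same unit); the line marks equal values. The 395 regions over 5 points below the line outnumber the 142 over 5 points above it, and most regions lie close to the line.

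The end used most changed place in 135 of the widely spaced members (6.27%), to a more proximal end in 90 and to a more distal end in 45. In 853 regions the most proximal end had the highest Psi in Ag, against 887 in Ag+Costim, and the most distal end had it in 807 and 766. In genes under 10 CPM both the shifts and the changes of the leading end were more frequent: of 1619 widely spaced regions there, 729 were shorter and 345 longer, and the leading end changed in 387 (23.9%). Among the members as well, shifts were less frequent at higher level. Of 407 widely spaced regions at 10 to 20 CPM, 117 were shorter and 59 longer, and of 563 regions at 100 CPM or more, 55 were shorter and 10 longer. The level sets how many reads stand behind a Psi value, and its part in these shares was not tested.

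The share of shorter regions increased with the length of the 3' UTR. Among widely spaced members whose most distal end gives a 3' UTR of up to 500 bases, 22 of 283 regions were shorter and 23 longer (7.77% and 8.13%). The counts were 51 and 24 of 388 at 500 to 1000 bases, 104 and 47 of 588 at 1000 to 2000 bases, and 135 and 26 of 583 at 2000 to 4000 bases. Above 4000 bases 73 of 237 were shorter and 15 longer (30.8% and 6.33%). In genes under 10 CPM the share of shorter widely spaced regions was likewise 32.8% in the shortest class and 56.9% in the longest. The median level of the members was 66.6 CPM in the shortest class and 31.7 CPM in the longest, and its part was not tested. The share of longer regions lay between 4.46% and 8.13% in all 5 length classes. The Psi-weighted 3' UTR length of a region above 4000 bases had a median of 2117 bases in Ag and 1868 bases in Ag+Costim, and in the class of 2000 to 4000 bases it was 1531 and 1440 bases. In genes of at least 50 CPM these medians were 1273 and 1269.8 bases above 4000 bases and 1219 and 1181 bases at 2000 to 4000 bases.

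The order of the shares of shorter regions by 3' UTR length was present among genes of at least 50 CPM. There 9 of 169 regions were shorter and 10 longer in the shortest class (5.33% and 5.92%), and 16 of 82 were shorter and 2 longer in the longest (19.5% and 2.44%). The median level still differed between these classes, at 124 and 88.9 CPM. Where AATAAA or ATTAAA preceded both outer ends, 60 of 345 widely spaced members were shorter and 21 longer (17.4% and 6.09%). Where the most proximal end lay past the stop codon, 333 of 1788 were shorter and 111 longer (18.6% and 6.21%). The distance between the outer ends gave a like picture, from 40 shorter and 17 longer of 339 regions at 100 to 300 bases to 89 and 18 of 336 above 3000 bases.

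**Figure D2:**
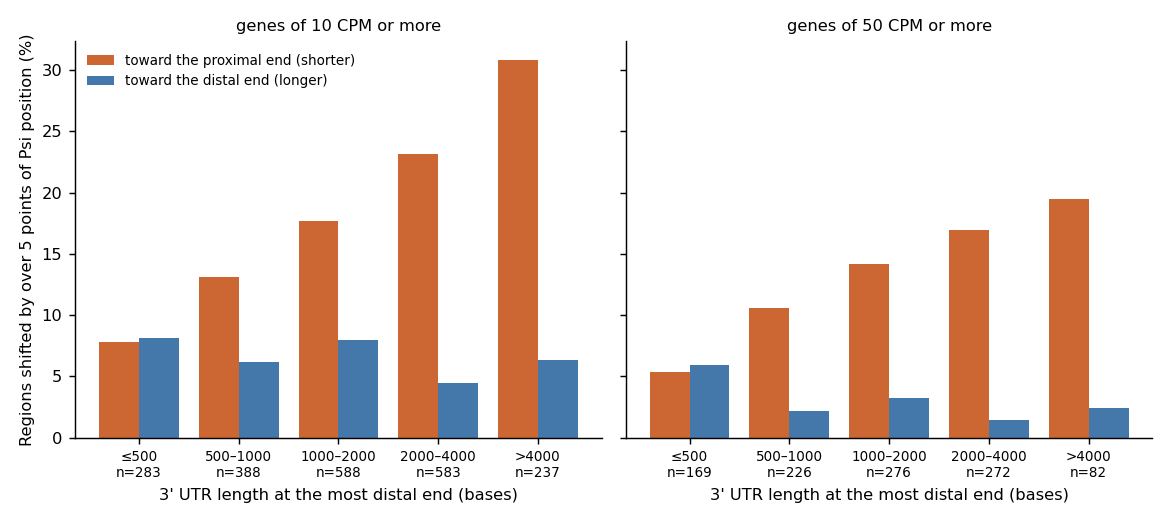
Share of widely spaced member regions (%, y axis) whose Psi end position was lower (shorter) or higher (longer) by over 5 points in Ag+Costim than in Ag, by the 3' UTR length at the most distal end (bases, x axis), for genes of at least 10 CPM (left) and of at least 50 CPM (right), with the number of regions under each pair of bars. The share of shorter regions goes from 7.77% to 30.8% on the left and from 5.33% to 19.5% on the right, and the share of longer regions shows no such increase.

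The stretch between the outer ends was searched for 3 motifs on the sense strand: TGTGTG, a repeat bound by the RNA binding protein Tardbp, ATTTA, the core of AU-rich elements that act on mRNA stability, and TGTANATA, the element read by Pumilio proteins. Their density per 1000 bases was 1.54, 1.86 and 0.247 over widely spaced members and 1.56, 1.85 and 0.240 over all widely spaced regions of the table. It was 1.40, 1.99 and 0.261 in shorter regions and 2.26, 1.77 and 0.359 in longer ones. These densities are pooled over all stretches of a set. The share of regions holding TGTGTG ran the other way, at 65.1% of shorter and 53.0% of longer regions. It was 53.3% of regions within 5 points. These differences were not tested. The stretch had a median length of 1480 bases in shorter regions, 970 bases in longer ones and 995 bases in regions within 5 points, with a median GC content of 41.1%, 43.5% and 43.2%.

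Members were grouped by the function of their genes with 11 lists. Except for the first 2 regions of each list by size of shift, the genes named below were chosen after their values were seen. Genes given as shorter or longer are widely spaced members over 5 points, and for each list the number of widely spaced members and the median shift are given beside the median of -0.38 points over all widely spaced members.

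Genes of T cell receptor and costimulatory signalling had 7 shorter and 3 longer of 28 regions (median -1.43 points). The shorter ones were Rasgrp1, the exchange factor that activates Ras below the receptor (45.1% to 19.7%), Pag1, an adaptor that anchors the kinase Csk at the membrane (60.5% to 43.8%), Ppp3cb, a catalytic subunit of calcineurin (20.8% to 11.1%), Nfkb1, which encodes the p105 precursor of NF-kB (96.0% to 86.5%), Grb2, Nfatc2 and Pik3r1. The longer ones were Cd247, which encodes the CD3 zeta chain (18.2% to 50.3%), Dlg1, a scaffold protein of the immune synapse (60.9% to 74.2%), and Cbl, a ubiquitin ligase that limits receptor signalling (86.7% to 94.4%).

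In Cd247 both ends lay in the 3' UTR, 904 bases apart, and gave 3' UTRs of 1185 and 2089 bases. Psi of the proximal end was 0.820 in Ag and 0.498 in Ag+Costim, and that of the distal end was 0.182 and 0.505. The proximal end thus led by Psi in Ag, and both ends were nearly equal in Ag+Costim. In Rasgrp1 the proximal end coincided with the stop codon, so that the transcript model has no 3' UTR, and its Psi was 0.549 in Ag and 0.803 in Ag+Costim. In Dlg1, Psi of the most proximal end was 0.358 and 0.0917. Psi of its ends at 415 and 838 bases further on was 0.0424 and 0.00516 in Ag and 0.201 and 0.0392 in Ag+Costim. The higher position went in part with these changes. Psi of its ends at 1500 and 1504 bases was 0.0157 and 0.615 for one and 0.582 and 0.0554 for the other. The exchange between these ends, 4 bases apart, by itself hardly alters the position. Together, however, they held more of the use in Ag+Costim than in Ag, which also went with the higher position.

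Transcription factors of T cells had 4 shorter and 3 longer of 27 regions (median -2.28 points). The shorter ones were Ikzf1, which encodes Ikaros, a regulator of lymphocyte development and activation (86.6% to 74.6%), Atf2, a member of the AP-1 group (94.3% to 83.1%), Runx2 (60.9% to 44.9%) and Eomes, a driver of effector and memory CD8 T cell programmes (65.7% to 56.2%). The longer ones were Ikzf2 (62.4% to 77.5%), Irf8 (68.1% to 78.1%) and Klf13 (20.4% to 30.7%). The ends of Ikzf1 shown above gave 3' UTRs of 217, 2531 and 3345 bases. Their Psi was 0.00940, 0.480 and 0.511 in Ag and 0.0843, 0.651 and 0.264 in Ag+Costim, so the end of highest Psi was the distal one in Ag and the middle one in Ag+Costim. The mean 3' UTR length weighted by Psi was 2925 bases in Ag and 2551 bases in Ag+Costim. In Atf2 the most proximal end, with a 3' UTR of 656 bases, carried 0.0531 of the use in Ag and 0.165 in Ag+Costim by Psi, and the remainder lay on ends at 2398 and 2413 bases. Tcf12, which encodes the E protein HEB, was within the threshold by position (42.2% to 37.4%), but single ends differed by more. Psi of its end 789 bases past the most proximal one was 0.0646 in Ag and 0.366 in Ag+Costim. Psi of its ends at 1239 and 1244 bases was 0.650 and 0.236 in Ag and 0.481 and 0.106 in Ag+Costim.

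Effector molecules and cytokine and homing receptors had 0 shorter and 3 longer of 16 regions (median -1.49 points). These were Tgfbr1, a receptor of the inhibitory cytokine TGF-beta (55.3% to 73.2%), Cd69, an early activation marker that holds cells in tissue (86.3% to 97.7%), and Fasl, a death ligand of cytotoxic cells (90.9% to 96.5%). In Tgfbr1, Psi of the most proximal end, 30 bases past the stop codon, was 0.428 in Ag and 0.0603 in Ag+Costim. Jak3, a kinase of common gamma chain receptors, had ends only 2 bases apart.

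Splicing factors and hnRNPs had 6 shorter and 1 longer of 41 regions (median -0.52 points). The shorter ones were Luc7l2 (88.3% to 50.3%) and Luc7l (61.0% to 53.0%), homologues of a yeast U1 snRNP protein, Mbnl1, a regulator of splicing and of 3' end choice (93.4% to 87.7%), Ptbp3 (57.0% to 47.1%), Hnrnph2 (83.4% to 75.0%) and Tia1 (64.2% to 58.9%), and the longer one was Ewsr1 (51.8% to 59.7%). In Luc7l2 the proximal end with the hexamer, at a 3' UTR length of 1565 bases, carried 0.117 of the use by Psi in Ag and 0.497 in Ag+Costim. Mbnl1 had 7 ends over 1550 bases. Psi of its end at 1181 bases was 0.246 in Ag and 0.402 in Ag+Costim, and Psi of its ends at 1548 and 1550 bases was 0.492 and 0.236 in Ag and 0.326 and 0.181 in Ag+Costim. Srrm2 had ends 5 bases apart.

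**Figure D3:**
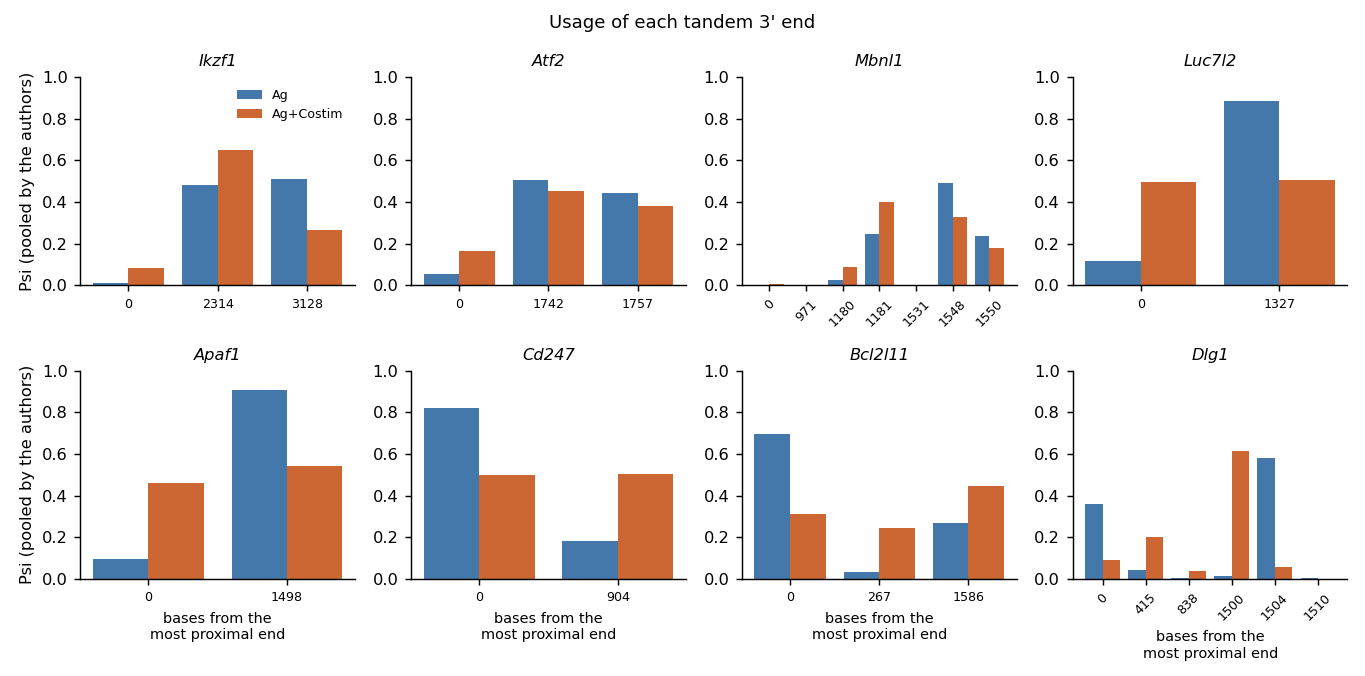
Psi of each tandem 3' end (y axis, the authors' pooled value for the 5 libraries of a group) of 8 genes, by its distance in bases from the most proximal end (x axis, not to scale), in Ag and Ag+Costim. Ikzf1, Atf2, Mbnl1, Luc7l2 and Apaf1 have more of their use at proximal ends in Ag+Costim, and Cd247 and Bcl2l11 more at distal ends. Dlg1 has less use at its most proximal end and also exchanges ends 4 bases apart.

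Genes of apoptosis and survival had 3 shorter and 2 longer of 14 regions (median -1.16 points). Apaf1, the scaffold of the apoptosome, was shorter (90.6% to 54.1%), as were Mdm4, an inhibitor of p53 (69.6% to 48.1%), and Mcl1, an anti-apoptotic member of the Bcl-2 family (44.3% to 31.9%). Bcl2l11, which encodes the pro-apoptotic protein Bim, was longer (27.4% to 48.7%), as was Diablo, an antagonist of inhibitor of apoptosis proteins (62.3% to 88.9%). The ends of Bcl2l11 shown above gave 3' UTRs of 2632, 2899 and 4218 bases, with Psi values of 0.699, 0.0343 and 0.269 for Ag and 0.311, 0.245 and 0.447 in Ag+Costim. In Apaf1, Psi of the proximal end, at a 3' UTR length of 124 bases, was 0.0935 and 0.459.

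In 5 of the remaining 6 lists more regions were shorter than longer. Proteasome and ubiquitin genes had 5 shorter and 0 longer of 34 (median -0.34 points), namely Cul5, Cyld, Nedd4, Uba6 and Ube2e3. Genes of mitochondrial and energy metabolism had 4 and 0 of 23 (median -0.15 points), among them Hk2, a hexokinase that starts glycolysis (99.5% to 69.3%), whose proximal end coincided with the stop codon. Cell cycle and DNA replication genes had 3 and 1 of 28 (median -0.24 points), with Skp2, the substrate receptor of an SCF ubiquitin ligase (98.4% to 91.3%), Chek1 (52.1% to 44.8%) and Rbl2 (36.3% to 28.8%) shorter and Ccnb1, which encodes cyclin B1 (80.8% to 92.1%), longer. Genes of membrane trafficking and cytoskeleton had 3 and 1 of 36 (median -0.57 points), with Sec24a, a cargo adaptor of COPII vesicles (58.5% to 37.4%), Rab22a (37.5% to 19.9%) and Map4 (47.1% to 33.8%) shorter and Actb (67.9% to 75.8%) longer. Translation factors, ribosomal proteins and ribosome biogenesis genes had 2 and 0 of 20 (median 0.02 points), Wdr12 and Nop16. Cleavage and polyadenylation factors had 0 and 2 of 11 (median -0.13 points), Cdk12 (64.7% to 73.3%) and Pabpn1, the nuclear poly(A) binding protein (91.6% to 99.4%). In 11 of the genes first in their lists by size of shift, the ends lay 17 bases or less apart. By Psi position Stag2, a cohesin subunit, was at 82.2% in Ag and 32.0% in Ag+Costim with ends 10 bases apart, and Ccnd2, which encodes cyclin D2, at 76.2% and 59.5% with ends 17 bases apart. The translation factors Eif4g1 (22.3% to 51.8%) and Eif4e2 (72.6% to 98.5%), Ufd1 (74.0% to 42.1%) and Cul2 (34.8% to 3.93%), Stat4 (90.8% to 74.2%), Atp5c1 (59.8% to 79.7%), Sec31a (38.7% to 61.9%), Srrm2 (65.9% to 40.0%) and Jak3 (80.2% to 99.1%) had ends 2 to 14 bases apart. With so few regions in each list, the differences between lists are given as counts and nothing is read from them.

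The largest Psi shifts among widely spaced members whose transcript counts moved in the same direction were found in genes of various functions. All of these genes but Ube4a, Luc7l2, Synj2bp and Bcl2l11 had a mean under 20 CPM, from 11.1 CPM in Camta1 to 18.1 CPM in Stx17. In Ag+Costim, Pik3c2a, Camta1 and Ddx60 were under 10 CPM (8.80, 8.97 and 5.33 CPM). Psi shifts were more frequent at low level, as given above, and the part of level in these shifts was not tested. The differences by counts ran from -8.33 to -0.21 points on the shorter and from 1.45 to 21.8 points on the longer side, and in each gene but Ube4a the difference was under 1 SD of the more variable group. The sign turned for Pik3c2a without Ag replicate 2, Ag replicate 3 or Ag+Costim replicate 3 (0.14, 3.39 and 0.55 points), for Dnmt3b without Ag replicate 1 (-1.17 points) and for Ddx60 without Ag replicate 3 (-0.10 points). For Rps6ka3 the 21.8 points were 2.76 points without Ag replicate 4. The shared direction was part of the choice of these genes and lends them no support. On the shorter side these were Pdp1, a phosphatase that activates pyruvate dehydrogenase (95.5% to 41.0%), Ube4a, a ubiquitin ligase (55.0% to 12.7%), Luc7l2, Pik3c2a, a class II phosphoinositide kinase (76.1% to 38.3%), Cenpu, a centromere protein (99.8% to 63.0%), and Stx17, a syntaxin of autophagosome fusion (88.6% to 52.8%). In Pdp1 the Psi of the end at a 3' UTR length of 766 bases was 0.0238 in Ag and 0.585 in Ag+Costim, and that of the end at 2389 bases was 0.977 and 0.415. In Cenpu the proximal end coincided with the stop codon. On the longer side were Synj2bp (36.2% to 68.0%), Ddx60 (19.9% to 51.4%), Camta1 (30.4% to 58.3%), Dnmt3b, a de novo DNA methyltransferase (64.8% to 86.6%), Bcl2l11 and Rps6ka3, a ribosomal S6 kinase (73.3% to 94.0%).

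The deposited transcript counts gave a value for each library. Counts of transcripts ending at the same place were summed, and the end position was weighted with these counts in place of Psi. This readout differs from Psi in kind, since annotated transcripts with different ends mostly also differ upstream: the transcripts at the proximal and distal ends shared the same introns in only 16 of the 2152 widely spaced members. Over the 2099 widely spaced members with at least 20 counts in every library, the positions of both readouts correlated across regions with a Pearson r of 0.473 in Ag and 0.472 in Ag+Costim (Spearman 0.477 and 0.476). Their shifts correlated with r = 0.079 and a Spearman coefficient of 0.135. The points share libraries and annotation, and regions are not independent replicates. Of the 380 regions counted as shorter by Psi, 207 had a lower position by counts as well (54.5%), and of the 132 counted as longer, 65 had a higher one (49.2%). Where both readouts moved by over 5 points, 79 of the shorter regions had the same sign and 29 the opposite, and of the longer regions 13 had the same and 8 the opposite sign. By counts alone, whatever their Psi, 275 of the 2099 regions were lower and 193 higher by over 5 points, so lower positions were the more frequent in any case.

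**Figure D4:**
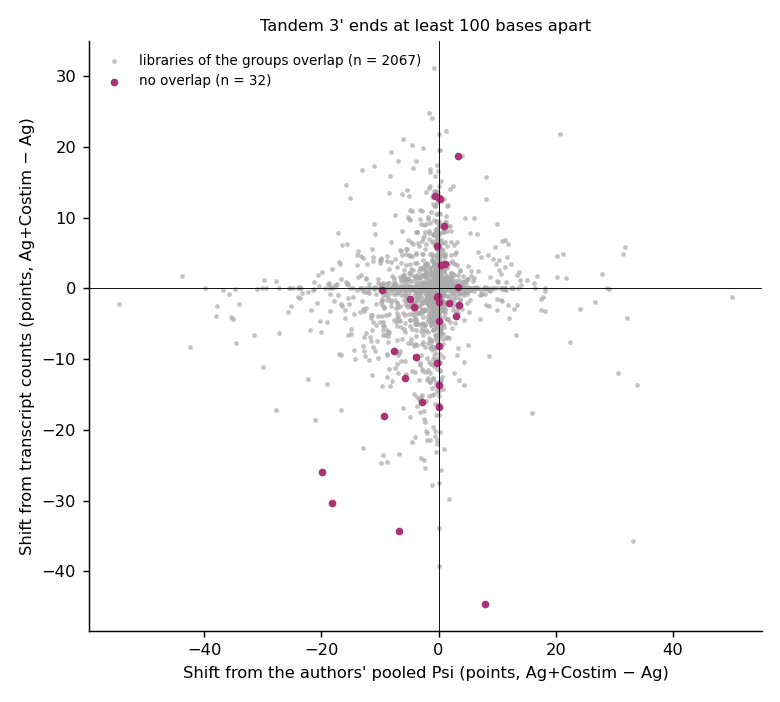
Shift of the end position between groups (points, Ag+Costim minus Ag) from the authors' pooled Psi (x axis) and from transcript counts (y axis, difference of the means of 5 libraries per group) in 2099 widely spaced member regions; coloured points mark regions whose 2 groups of libraries do not overlap. The cloud shows little slope (r = 0.079), and many regions lie along an axis with a shift in only one readout.

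Averaged over the 3295 members with at least 20 counts in every library, the count-weighted position was 71.6%, 72.2%, 73.0%, 71.6% and 72.1% in the Ag libraries (72.1% ± 0.582, SD, n = 5). It was 71.2%, 71.1%, 70.9%, 71.5% and 71.1% in the Ag+Costim libraries (71.2% ± 0.201, SD, n = 5). The Ag+Costim libraries were all lower, with a mean difference of -0.92 points, but the lowest Ag library (71.6%) and the highest Ag+Costim library (71.5%) lay close together. Ag replicate 3, the library of lowest depth, had the highest value, and without it the difference was -0.70 points. Over widely spaced members the difference was -0.68 points and the groups overlapped, with Ag replicate 5 at 78.2% and Ag+Costim replicate 4 at 78.4%. Over all 4345 counted regions of the table it was -1.17 points.

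End usage by counts was tested with edgeR's diffSpliceDGE over all 3531 regions that could be tested, of which 2774 were members. At a Benjamini-Hochberg (BH) adjusted p under 0.05 it called 9 regions (0.255%), and 7 of them were members: Aga, Cad, Capn15, Cct3, Ctdspl2, Ep400 and Pak6. The position by counts was lower in Ag+Costim in each of these. At an unadjusted p under 0.05 there were 83 members, 46 with a lower and 37 with a higher position, beside 2.83% over all regions tested. limma's diffSplice called 29 members, beside 1.02%. Regions whose groups of libraries did not overlap numbered 34 lower and 18 higher of 3295 members, beside 1.13% and 0.552% of all regions, so these shares (1.03% and 0.546%) were near the background. Among the 2099 widely spaced members there were 23 lower and 9 higher (1.10% and 0.429%), beside 1.26% and 0.433% of all widely spaced regions.

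Capn15, a calpain family protease, had the widest spacing among the called regions without overlap, with ends 1189 bases apart. Its position by counts was 99.8%, 99.8%, 99.9%, 99.8% and 99.9% in Ag and 76.6%, 79.7%, 80.3%, 87.6% and 91.1% in Ag+Costim. The groups did not overlap, with means of 99.8% ± 0.05 and 83.1% ± 6.03 (SD, n = 5, edgeR adjusted p = 1.05e-06). Psi of its proximal end, which coincides with the stop codon, was 0.00193 in Ag and 0.00113 in Ag+Costim, so the difference in transcript counts had no counterpart in the usage of ends by Psi.

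Cct3, a subunit of the chaperonin TRiC, was at 82.6%, 96.4%, 95.5%, 82.5% and 94.9% by counts in Ag and 74.9%, 78.3%, 78.8%, 76.5% and 75.5% in Ag+Costim (edgeR adjusted p = 5.76e-06, limma 0.589). With ends matched exactly its edgeR adjusted p was 0.0561. Its proximal end lies 41 bases before the stop codon and had a Psi of 0.000326 and 0.000133. Cad, the enzyme of the first steps of pyrimidine synthesis, was at 100% in every Ag library and at 97.3%, 99.4%, 99.2%, 99.4% and 99.5% in Ag+Costim (edgeR adjusted p = 0.000546), a difference of -1.03 points that was -0.63 points without Ag+Costim replicate 1. Both had groups without overlap and differed by less than 0.2 points in position by Psi.

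Aga, a lysosomal glycosylasparaginase, and Pak6, a p21-activated kinase, had ends 4 and 2 bases apart. Aga was at 100% in every Ag library and at 71.5%, 48.0%, 79.9%, 83.0% and 75.3% in Ag+Costim (edgeR adjusted p = 8.15e-07). Pak6 was at 100% in every Ag library and at 93.1%, 98.5%, 96.1%, 84.9% and 95.5% in Ag+Costim (edgeR adjusted p = 0.000158), while by Psi its position was 12.2% in Ag and 52.1% in Ag+Costim, the opposite direction. Its difference by counts, -6.40 points, was -4.22 points without Ag+Costim replicate 4. Ep400, a chromatin remodelling ATPase with ends 5 bases apart, was at 47.2%, 83.5%, 82.0%, 3.71% and 84.7% in Ag and between 0.88% and 4.00% in Ag+Costim, and the groups overlapped (edgeR adjusted p = 0.00913). Its call was lost without Ag+Costim replicate 2, 3 or 5, at adjusted p of 0.0547, 0.0649 and 0.0598. In these 3 genes the 3' UTR length was the same within a few bases whichever end was used.

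Ctdspl2, a phosphatase of the small CTD phosphatase family, was the called region with a shift over 5 points in both readouts and the same direction. Its 4 ends spanned 2919 bases, and the readouts again differed by end. By Psi the position was 52.3% in Ag and 41.1% in Ag+Costim, and Psi of the most proximal end was 0.141 and 0.321. By counts it was 75.6%, 68.3%, 93.6%, 62.1% and 91.8% in Ag and 84.7%, 65.6%, 65.6%, 69.2% and 64.8% in Ag+Costim. The groups overlapped, and the edgeR adjusted p was 0.000546 for the usage of its ends (limma 0.0757). The difference in position of -8.31 points was -4.47 points without Ag replicate 3 and -4.92 points without Ag replicate 5, each with an edgeR adjusted p under 0.05. The most proximal end held 0.489% of the counts in Ag and 0.373% in Ag+Costim, and the next end, 1665 bases on, held 49.4% and 68.7% while its Psi was 0.782 and 0.623.

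Mbnl1 was among 6 widely spaced members with a shift over 5 points toward the proximal end in both readouts and no overlap between the groups of libraries, together with Bbx, Ralgps2, Zfp62, Gimap8 and Iqce. These 6 were chosen after their values were seen. Mbnl1 was at 64.8%, 58.7%, 64.8%, 61.9% and 67.1% by counts in Ag and at 46.8%, 56.4%, 51.5%, 50.3% and 48.9% in Ag+Costim (63.4% ± 3.24 and 50.8% ± 3.61, SD, n = 5). The difference of -12.6 points exceeded the spread within either group. The readouts placed it at different ends, however. By counts the share of the most proximal end was 29.8% in Ag and 42.3% in Ag+Costim, while its Psi was 5.58e-05 and 0.00701. The end at 1181 bases, whose Psi was higher in Ag+Costim, held 6.11% and 4.79% of the counts. diffSpliceDGE over its ends gave an unadjusted p of 0.31 and an adjusted p of 1.

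For the other regions named above the libraries overlapped. Ikzf1 was at 96.8%, 98.3%, 96.5%, 98.2% and 99.0% by counts in Ag and at 96.0%, 97.9%, 98.0%, 98.0% and 95.8% in Ag+Costim (edgeR adjusted p = 1), so the transcript counts put nearly all use at the distal end in both groups, unlike Psi. Atf2 was at 77.5%, 83.5%, 98.9%, 96.9% and 96.8% in Ag and 82.2%, 97.6%, 96.2%, 75.0% and 79.0% in Ag+Costim. Ube4a was at 81.6%, 85.0%, 81.9%, 75.2% and 73.1% in Ag and 69.3%, 77.2%, 74.7%, 65.6% and 68.2% in Ag+Costim. Of these, Ube4a had a lower mean in Ag+Costim by over 5 points, in the direction of its Psi shift.

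**Figure D5:**
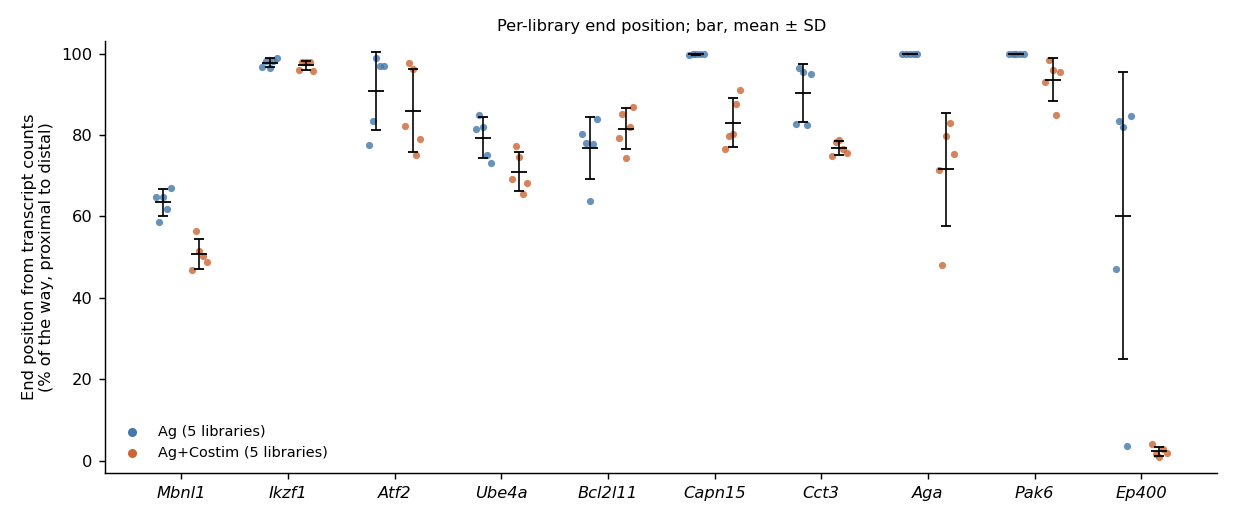
End position from transcript counts (%, y axis, from 0 at the most proximal to 100 at the most distal end) in each of 5 Ag and 5 Ag+Costim libraries for 10 named genes; points are libraries, bars the mean ± SD. Mbnl1, Capn15, Cct3, Aga and Pak6 have no overlap between groups, Ep400 overlaps through 1 Ag library, and Ikzf1, Atf2, Ube4a and Bcl2l11 overlap.

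Cd247 was at 1.71%, 11.7%, 15.2%, 4.38% and 3.84% by counts in Ag and at 0.44%, 0.58%, 2.53%, 8.20% and 3.86% in Ag+Costim. The counts assigned to this region thus lay near the proximal end in every library. They were few, with 33 in the library of fewest counts, in a gene with a mean of 256 CPM. The regions of Apaf1 and Pabpn1 named above held as few as 6 and 18 counts in a library, under the minimum of 20 used for comparing the readouts. Bcl2l11 was at 80.3%, 78.0%, 63.7%, 77.8% and 83.9% in Ag and at 79.4%, 85.2%, 74.4%, 82.0% and 87.0% in Ag+Costim. Skp2, Hk2 and Rasgrp1 were at 100% by counts in all libraries to within rounding, and carry no per-library measure of the Psi shift. Dlg1 and Tcf12 had mean shifts by counts of -6.51 and 6.55 points, opposite in sign to those by Psi, with overlapping libraries. Counts of Cdk12 (-9.50 points), Cd247 (-4.23), Diablo (-1.87), Tgfbr1 (-1.20) and Apaf1 (1.59) also moved against Psi, again with overlap. With ends close together, so did Stag2 (20.1), Ccnd2 (11.7), Sec31a (-9.32) and Jak3 (-8.30). How often the sign was shared over the widely spaced members shifted by Psi is given above. The 4 ends of Dhx30 lay within 3 bases of each other.

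The level of the member genes was compared in the same libraries. edgeR's quasi-likelihood test called 0 of 24262 genes at an adjusted p under 0.05 (0%), and so 0 of the 3273 member genes. At an unadjusted p under 0.05, 704 member genes were higher and 107 lower in Ag+Costim (21.5% and 3.27%), beside 20.2% and 2.99% of all 8650 genes of at least 10 CPM and 7.89% and 10.7% of all genes tested. Of the 3273 member genes, DESeq2 called 348 higher and 113 lower at an adjusted p under 0.05. Of 8641 genes of at least 10 CPM, the level at which members were chosen, it called 847 higher (9.8%). With genes under 10 CPM included, higher calls made up 2.58% and lower calls 19.8% of all genes it tested. Fold changes here and below are edgeR's after TMM scaling, while CPM are scaled to the total only. A fold change can therefore differ from the ratio of the mean CPM. The median log2 fold change was 0.21 over member genes and 0.24 over genes of at least 10 CPM. This median was 0.22 for genes of shorter widely spaced regions, 0.09 for genes of longer ones and 0.23 for those within 5 points.

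Ikzf1 was at 159 ± 45.9 CPM in Ag against 221 ± 14.9 CPM after costimulation (SD, n = 5; log2 fold change 0.78, SE 0.13, edgeR adjusted p = 0.117, DESeq2 adjusted p = 0.000493). Skp2 was at 14.3 ± 5.24 and 28.7 ± 4.17 CPM (log2 fold change 1.19, SE 0.32, DESeq2 adjusted p = 0.0130). Bcl2l11 was lower in Ag+Costim by its means, at 45.3 ± 41.1 and 14.7 ± 3.40 CPM (log2 fold change -1.20, SE 0.50, DESeq2 adjusted p = 0.0452), with an SD in Ag nearly as large as the mean. Mbnl1 was at 453 ± 137 and 497 ± 16.5 CPM (log2 fold change 0.44, SE 0.15, DESeq2 adjusted p = 0.112). Cd247, at 285 ± 57.5 and 227 ± 17.8 CPM, and Apaf1, at 45.4 ± 21.4 and 46.7 ± 3.60 CPM, did not pass either test.

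The factors that make 3' ends were measured in the same libraries with a list of 37 genes. None passed edgeR's adjusted threshold. At an unadjusted p under 0.05, 20 were higher in Ag+Costim and 0 lower (20.2% and 2.99% of genes of at least 10 CPM, as above), 35 of 37 had a positive log2 fold change, and the median was 0.40, beside 0.24 over all genes of at least 10 CPM. By mean CPM, however, Cdc73, Cdk12, Cdk13, Cstf2t, Papolg, Pcf11 and Rbbp6 were lower in Ag+Costim. Cdc73 was at 20.4 and 17.9 CPM with a log2 fold change of 0.08. DESeq2 called 9 of them (24.3%), all higher, beside 9.8% of genes of at least 10 CPM called higher. In 10 (27.0%) the Ag+Costim libraries were all above the Ag libraries, beside 7.63% of genes of at least 10 CPM. Among these were Cstf2, the subunit of the cleavage stimulation factor that binds RNA downstream of the cut (95.5 ± 20.3 and 149 ± 13.3 CPM, SD, n = 5; log2 fold change 0.83, SE 0.26, DESeq2 adjusted p = 0.0267), and Cstf3 (63.6 ± 7.86 and 76.9 ± 3.74 CPM, log2 fold change 0.53, SE 0.13). Papola, the poly(A) polymerase, was at 217 ± 38.3 and 301 ± 26.4 CPM (log2 fold change 0.73, SE 0.15, DESeq2 adjusted p = 0.00026), and Cpsf6, a subunit of cleavage factor Im, at 174 ± 34.9 and 241 ± 15.7 CPM (log2 fold change 0.66, SE 0.25). Of the 37 genes, 12 held a member region themselves, among them Cpsf6, Cstf2, Nudt21 and Pcf11. A link between their level and the choice of ends was not tested.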

How the data were processed

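Poly(A) RNA of 10 libraries, 5 per group, was analysed. The labels name a SMART-Seq kit with paired reads, which does not mark strand, so a gene and an antisense partner cannot be told apart. The authors aligned reads to mm10 and made estimated counts (expected counts) per gene and transcript, deposited without normalization; their notes list HISAT2 2.1.0, SAMtools 1.9, StringTie 2.1.0, R 4.0.5 and DESeq2 1.30.1. These are derived from coverage and are not numbers of reads. Rows without a gene identifier held 0.0458% to 0.308% of the counts and were left out. The authors ran Whippet, whose version and index are not given in the sources used here, and deposited Psi as 1 fraction per event and group. Their deposited difference, probability and entropy scores were not used. The number of reads behind each Psi value is unknown here.

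Ends of the Psi table were matched to GENCODE M21 transcript ends within 10 bases (8392 member events, 98.2%), and 87 regions were assigned to a gene through such an end. Counts were summed per end. Regions were tested with edgeR 4.0.16 (quasi-likelihood fit, filterByExpr, TMM, diffSpliceDGE, Simes p per region) and genes with edgeR's quasi-likelihood test, both with BH adjustment over all features tested, in R 4.3.3. limma 3.58.1 (voom, diffSplice) and DESeq2 1.42.0 were run as alternatives, as were a fit with the replicate number as a block, DESeq2 size factors, no filter, exact matching, other thresholds and leaving out each library. Group sizes of 5 and the spread between libraries limit the precision. The edgeR and limma steps were also run on simulated counts with the same dispersion for all features. That is simpler than the spread between these libraries, and no support is drawn from it.

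Genes named were those whose ends the study's text names, the 6 largest Psi shifts in each direction with counts in the same direction and at least 20 counts in every library, the first 2 of each function list, regions past the threshold and the 3 genes nearest 10 CPM on each side. Sos2 is under 10 CPM. Other genes in the text were chosen after their values were seen. The members and lists were chosen with earlier results of these data known. Sequences are from GENCODE M21 transcripts.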

Additional observations from a re-analysis of the deposited data

Results flagged for a closer look

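In 8 of 54 groups of 5 libraries checked, 1 library lay far from the others in end position by transcript counts. For normally distributed values, chance alone gives such a flag in about 1 of 20 groups. These percentages are bounded at 100%, often tied there, and some genes were chosen by their counts. The number of flags can therefore not be set against that share. In Ag, Rps6ka3 was at 0% in replicate 4, with the nearest library at 85.2%, Dnmt3b at 86.9% in replicate 1 (nearest 99.9%), Camta1 at 91.1% in replicate 4 (nearest 98.0%) and Ddx60 at 74.4% in replicate 3 (nearest 98.3%). In Ag+Costim, Luc7l2 was at 81.0% in replicate 5 (nearest 93.5%), Camta1 at 99.3% in replicate 5 (all others at 100%), Cad at 97.3% in replicate 1 (nearest 99.2%) and Ctdspl2 at 84.7% in replicate 1 (nearest 69.2%). For Rps6ka3, Dnmt3b, Camta1 and Ddx60 the single library is the lowest of the Ag group, and the mean of that group by counts rests on it.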

How the results depend on the processing

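The number of member regions called for end usage, 7, was 16 without the filter on low counts and 29 with limma (5 of them shared), and from 7 to 17 when 1 library was left out. It was 17 without Ag replicate 1, 2 or 5, 15 without Ag replicate 3 or 4 and 11 without Ag+Costim replicate 1. Gene calls were 461 with DESeq2 and 0 under all other settings run. The 1075 regions shifted by Psi (705 shorter, 370 longer) became 589 (374 and 215) at a threshold of 0.1, 402 (278 and 124) in genes of at least 50 CPM and 537 (395 and 142) with ends at least 100 bases apart. In the last set, chosen after seeing the data, a hexamer at both outer ends left 81 (60 and 21) and a proximal end past the stop codon left 444 (333 and 111). The Psi values are pooled and could not be recomputed without a library.

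The mean position differed by -0.92 points, by -0.93 with at least 100 counts per region, by -1.25 as the share of the most distal end, and by -1.05 to -0.70 when 1 library was left out. The replicate numbers do not pair the libraries: deviations of same-numbered libraries from their group means correlated at 0.207, -0.0136, -0.202, -0.434 and 0.0477 over 8650 genes, and 0 of 5 correlated best with its own number. With the replicate number as a block, 8 member regions were called, 6 of them shared, and 0 genes. Ep400 was not among them (adjusted p = 0.287). Cct3 was lost with limma (0.589) and exact matching (0.0561), and Ctdspl2 with limma (0.0757). By counts, Pik3c2a changed sign without Ag replicate 2 or 3 or Ag+Costim replicate 3 (0.136, 3.39 and 0.552 points), Dnmt3b without Ag replicate 1 (-1.17 points) and Ddx60 without Ag replicate 3 (-0.10 points). Rps6ka3 moved from 21.8 to 2.76 points without Ag replicate 4. Causes were not tested.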

Other observations

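In genes of at least 10 CPM, Psi differed between the groups by over 0.05 in 31.6% of the 8543 tandem end events, with a median absolute difference of 0.0178. It did so in 23.5% of 7396 tandem transcription start events, 14.3% of 370 alternative last exon events and 1.95% of 79081 core exon events (medians 0.0134, 0.00784 and 0.00177). These are the authors' pooled values, and the differences between event types were not tested.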
